A study of Homo sapiens with 2 samples.

Results

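Solute carriers are the membrane proteins that move amino acids, sugars, ions, metals, vitamins and metabolites across the plasma membrane and the membranes of organelles. Their genes were described here in a comparison of wild-type MDA-MB-231 cells, an established human triple-negative breast cancer line, with a TMEM25 knockout of that line, for which the labels write TAMER. The wild-type library is labelled TAMER+/+ and the knockout library TAMER-/-, and both were grown in DMEM with serum. Each genotype had 1 library of bulk RNA, and whether the knockout line is a single clone is not given in the sources used here. No difference below has a replicate check, and none was tested. Members were taken by name: every gene in the authors' deposited table whose symbol starts with SLC or SLCO followed by a digit. That gave 53 of 2046 genes. SLC2A4RG meets the rule by its symbol, but its product is a transcriptional regulator named after the glucose transporter gene SLC2A4, so 52 of the 53 encode transporters.

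The table is restricted to genes with a higher value in the knockout library. Its lowest ratio of knockout to wild type was 2 and its lowest knockout value was 1, so that every member was higher in the knockout by construction. What can be read from it is which carriers were listed, how far apart the libraries were, and from what level each started. Carriers that are not named here were not analysed here. The targeted gene TMEM25 was not analysed here, so the knockout label could not be checked against it.

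Solute carriers fall into numbered families by sequence, and a family often shares a kind of substrate. Facilitators let a solute run down its gradient, symporters and antiporters couple it to sodium, protons or another solute, and the SLC25 family sits in the inner mitochondrial membrane. In tumour cells the carriers of glutamine and of essential amino acids feed growth and mTORC1 signalling, monocarboxylate carriers pass lactate, and zinc importers such as SLC39A6, also called LIV-1, are known from estrogen receptor-positive breast cancer.

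Expression values are the authors' own, in a unit that is not named, and are given as knockout against wild type. They were taken to be scaled for gene length and depth, which comparisons of level between genes rely on. On log2(value + 1), a scale that understates the ratio of low genes, 43 of the 53 members were at least 2-fold higher in knockout than in wild type. The same held for 80.6% of all 2046 listed genes, and for 81.1% of the members. Members had a median log2 ratio of 1.30, and all listed genes 1.33. In bulk RNA, fewer cells of a type and less RNA per cell cannot be told apart.

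Of 12 markers of luminal breast cells, TFF1 and TFF3 were listed, summing to 6048 in knockout and 4.62 in wild type, and the other 10 were not analysed here. Of 12 genes typical of mesenchymal-like MDA-MB-231 cells, 2 were listed, among them TGFBI at 10.2 against 0.42. No fibroblast, leukocyte or kidney and intestine marker was listed, of 6, 6 and 8. The luminal markers were higher in the same library as the carriers, and their part in the result was not tested.

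Members and table are set side by side next, and no difference between them was tested. By the authors' deposited table the ratio was at least 4 for 26 members (49.1%, against 41.2% of all listed genes). It was at least 10 for 16 members (30.2%, against 20.1%) and at least 100 for 2, SLC7A2 and SLCO3A1 (3.77%, against 3.67%). The 16 include all 7 members with under 10 wild-type reads, named below. Such genes were 13.2% of the members and 15.7% of all listed genes. For SLC4A10 and SLC25A48 the ratio rests on a wild-type value of 0.1 that stands for a count of 0. The upper quartile of the deposited ratio was 10.9 in the members and 7.29 in the table, while the medians were 3.54 and 3.33. The median knockout value was 13.2 in the members and 12.1 in the table, and the median wild-type value 2.48 and 2.91.

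**Figure D1:**
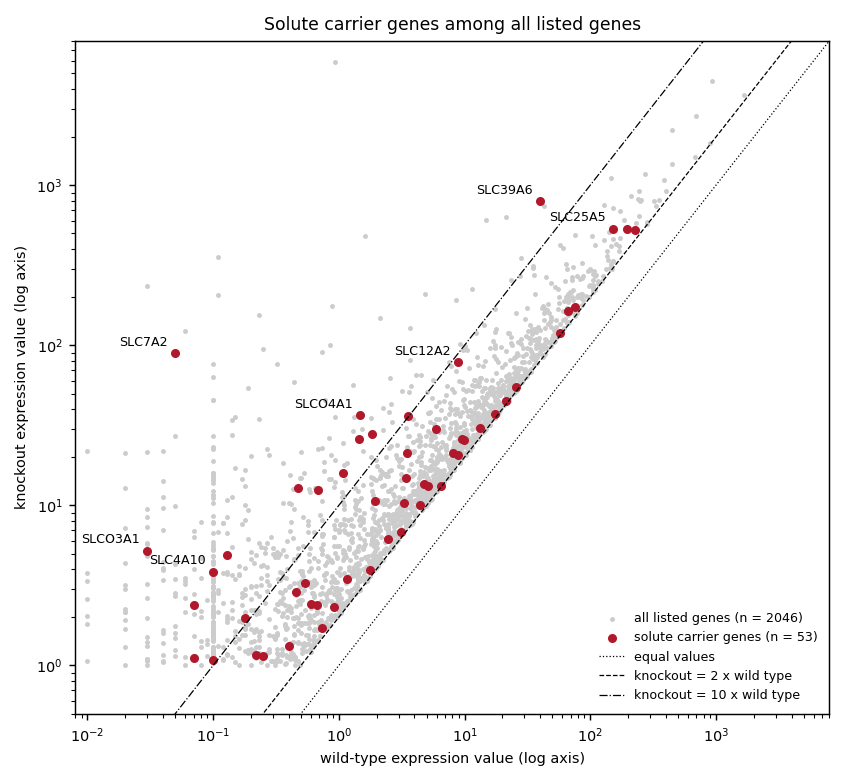
Deposited expression values of all 2046 listed genes (grey) and the 53 solute carrier genes (red), wild type on the x axis and knockout on the y axis, both logarithmic, 1 library each. Lines mark equal values and ratios of 2 and 10. All points lie on or above the line of 2 because the table holds no others, and 16 solute carrier genes lie on or above the line of 10.

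Read counts gave a second measure of each ratio. The read-count fold is the ratio of reads divided by 1.16, the relative number of reads per unit of expression in the libraries, and its 95% interval covers counting error only. The lower limit of this interval was above 2 for 41 members (77.4%, against 76.5% of all listed genes), and the interval included 2 for the other 12. The members had from 40.4 to 53575 reads in knockout and from 0 to 15236 in wild type, with medians of 848 and 130. Under 10 wild-type reads were counted for 7 members: SLC7A2, SLC6A12, SLC30A3, SLCO3A1, SLC5A11, SLC4A10 and SLC25A48. SLC4A10 and SLC25A48 had 0.

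**Figure D2:**
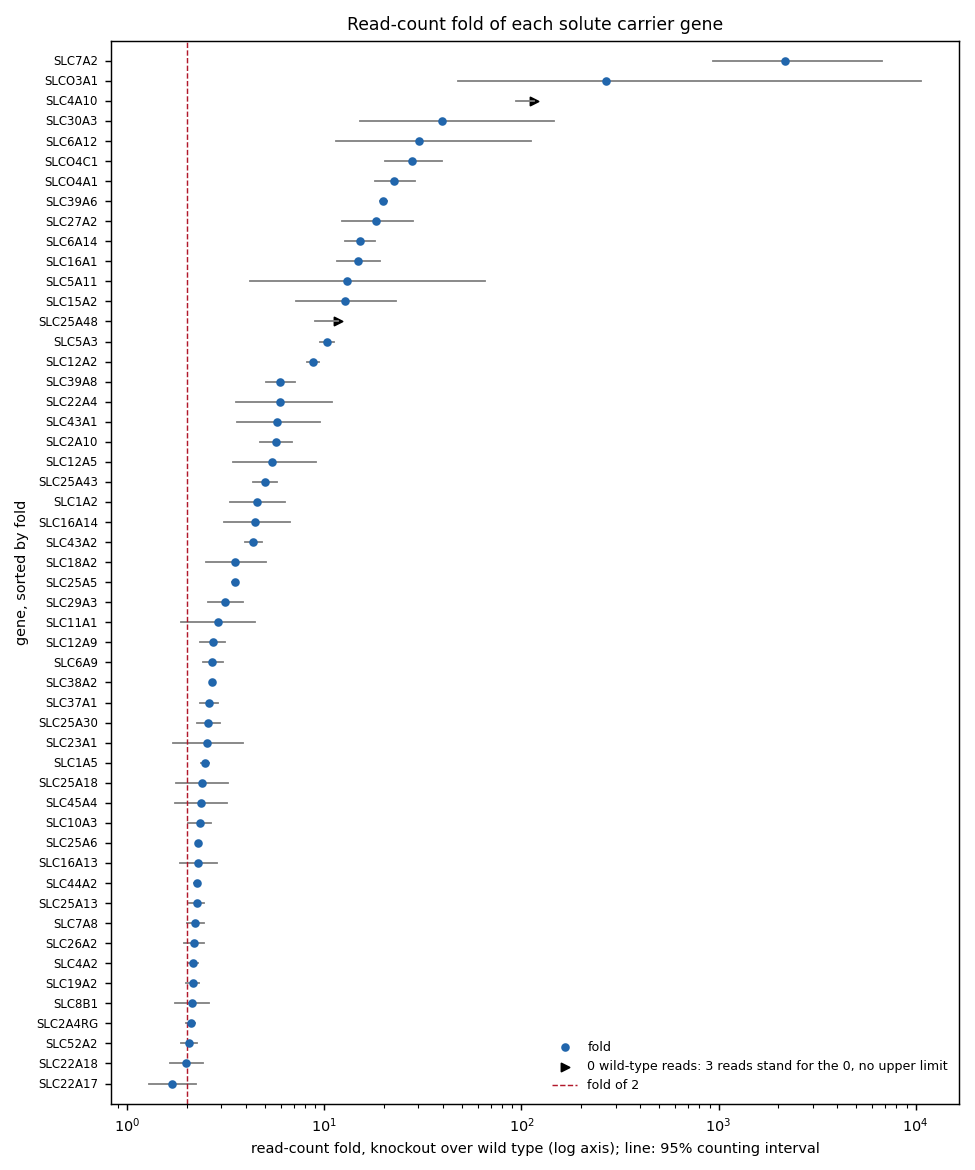
Read-count fold of 52 of the 53 genes, knockout over wild type, on a logarithmic x axis, with its 95% counting interval as a line. Arrowheads mark SLC4A10 and SLC25A48, where 3 reads stand for a wild-type count of 0 in the fold but not in the interval. The dashed line marks a fold of 2. Folds run from 1.69 for SLC22A17 to 2186 for SLC7A2, and the widest intervals belong to genes with few wild-type reads.

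RefSeq holds 398 protein-coding genes with SLC or SLCO symbols in 58 families. The 53 members are 13.3% of them and come from 30 families, while 10.0% of all 20056 protein-coding genes were listed. Many of the other genes may be silent in this line, so these shares are counts and no enrichment. The SLC25 mitochondrial carriers gave 7 of 48 genes, the SLC16 monocarboxylate family 4 of 14, the SLC6 neurotransmitter and amino acid family 3 of 19, the SLC12 cation-chloride family 3 of 9 and the SLCO organic anion family 3 of 12. SLC43, a small family of amino acid carriers, gave 2 of 3. Among families with no listed gene, SLC35, the nucleotide-sugar transporters of the Golgi and endoplasmic reticulum, was the largest at 31 genes, followed by the sodium-proton exchangers of SLC9 at 14 and by SLC17 at 9. SLC22A18 now carries the symbol SLC67A1 in RefSeq and is counted there under its own family.

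**Figure D3:**
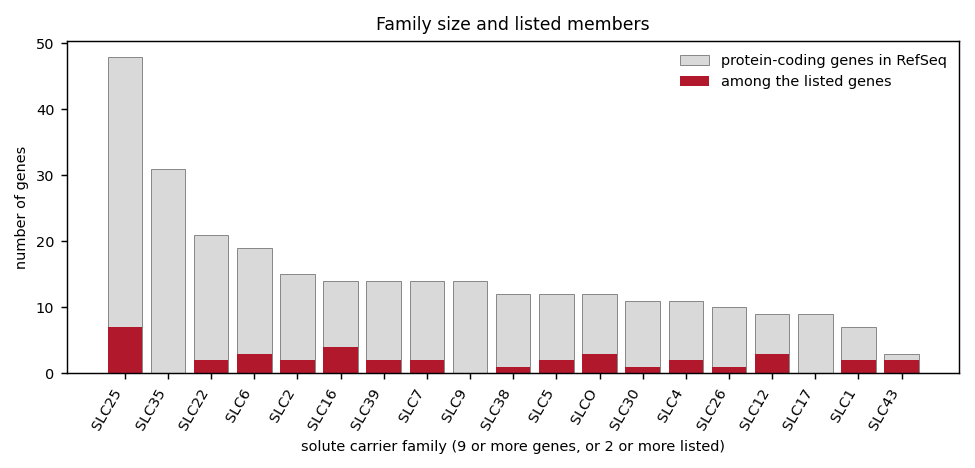
Number of protein-coding genes in RefSeq (grey bars, from 0) and number among the listed genes (red bars) for solute carrier families with 9 or more genes or with 2 or more listed. SLC25 has 7 listed of 48 and SLC35 has 0 listed of 31.

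RefSeq promoter sequences (build GRCh38.p14) matched 42 of the 53 members, and the 250 bases before each start were searched on both strands for 4 motifs. They are shown because the series asks about STAT3 and because the other motifs belong to pathways that act on carriers or on luminal breast cells. The STAT motif TTCNNNGAA was found in 1 member (2.38%, against 5.71% of the 1610 listed genes with a promoter and 6.78% of all 27305 promoters) and the amino acid response motif TGATGNAA in 1 (2.38%, against 1.49% and 3.19%). The antioxidant response core TGACNNNGC was found in 4 (9.52%, against 10.8% and 11.0%), and the estrogen response element, GGTCA and TGACC with 3 bases between them, in 0, as in all but 12 of the 27305. The median GC content of these bases was 65.6% in members, 66% in listed genes and 58% in all promoters, and its part in the shares was not tested. A match is a description of the letters and no evidence of binding. The matches are given below with 10 bases on each side, in the gene's direction, with the matching letters in capitals. The stretch of SLC25A18 (22, plus strand, 17563306 to 17563334) holds the STAT motif and that of SLC11A1 (2, plus strand, 218382209 to 218382236) the amino acid response motif. The antioxidant core lies in the other lines, in SLC25A5 (X, plus strand, 119468228 to 119468256), SLC25A13 (7, minus strand, 96322241 to 96322269), SLC30A3 (2, minus strand, 27275455 to 27275483) and SLCO4C1 (5, minus strand, 102296330 to 102296358). Those of SLC11A1, SLC30A3 and SLCO4C1 lie inside the span GENCODE 29 gives the gene, and the others before it.
SLC25A18: ataaaaaaccTTCAGTGAAaaatactagc
SLC11A1: aaccgaatgtTGATGTAAgaggcagggc
SLC25A5: ccttcctctcGCCGGGTCAggtgccgagg
SLC25A13: ggacagcgcaGCGGGGTCAcgtgtccctg
SLC30A3: gtccagcagtTGACTGCGCttgtgcgcag
SLCO4C1: ccgcacggggGCGCTGTCAcctgcctgtg

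The 6 genes with these matches had deposited ratios from 2.28 for SLC25A13 to 37.7 for SLC30A3. Both values of each are given with its substrate class below.

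**Figure D4:**
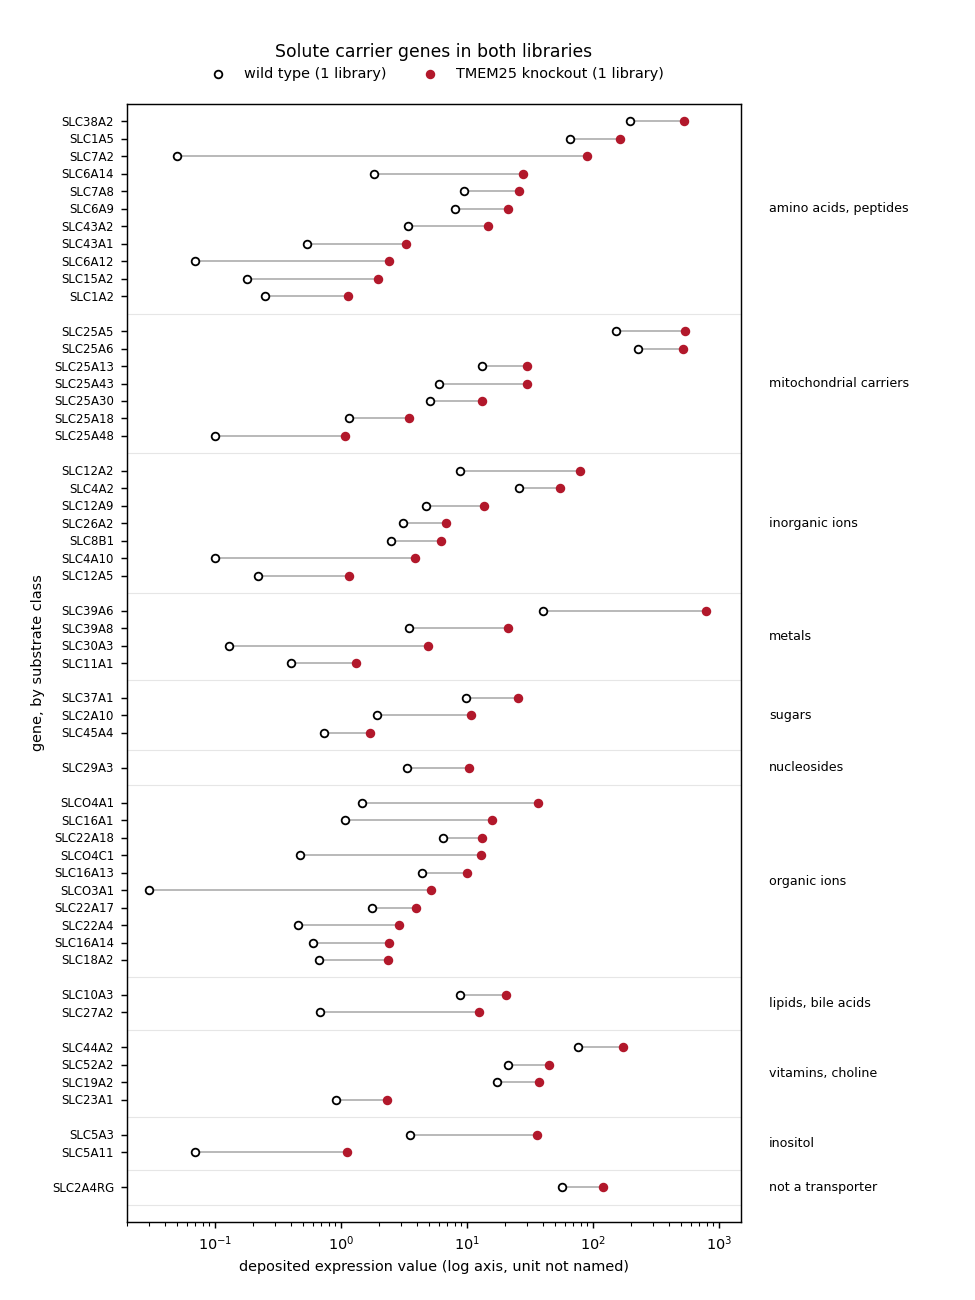
Deposited expression value of 52 of the 53 genes in the wild-type library (open circles) and the knockout library (red circles), 1 library each, on a logarithmic x axis, grouped by substrate class. The longest line is that of SLC7A2, from 0.05 to 89.7, and the highest knockout value that of SLC39A6, at 792.

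Carriers of amino acids and peptides were the largest class, with 11 members, of which 10 were at least 2-fold higher on the log2(value + 1) scale. Their deposited ratios had a median of 4.60 and reached 10 in 4 of the 11. The lower limit of the counting interval was above 2 for all 11. Beside these and later class counts, 80.6% of all listed genes were at least 2-fold higher. Of all listed genes, 20.1% had a ratio of at least 10 and 76.5% a lower limit above 2. SLC7A2, which brings arginine, lysine and ornithine into cells, had the highest ratio of all members. Its value was 89.7 against 0.05, from 12652 and 5.01 reads. It was close to 0 in the wild-type library and stood 260th of 2046 by level in the knockout library. Its log2 ratio was 6.43, and its read-count fold of 2186 had an interval of 938 to 6747. The gene lies on the plus strand of chromosome 8 from 17497088 to 17570573 (GENCODE 29, GRCh38), and the next protein-coding gene, PDGFRL, was also listed, at 5.80 against 0.03.

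SLC6A14, SLC38A2 and SLC1A5 started from higher wild-type values than SLC7A2. SLC6A14, which takes up neutral and cationic amino acids with sodium and chloride, was at 27.9 against 1.84, from 2373 and 136 reads, a fold of 15.1 (12.7 to 18.1). SLC38A2, a sodium-coupled carrier of small neutral amino acids, had the highest level of the class in both libraries, 531 against 197. Its fold of 2.70 (2.65 to 2.75) rested on 47558 and 15236 reads. SLC1A5, the glutamine carrier ASCT2, followed at 165 against 66.2, a fold of 2.48 (2.37 to 2.58). The 2 most abundant amino acid carriers lay near the lower limit of the table, and the least abundant in wild type had the largest ratio. Such a relation between level and ratio is in part set by construction. Every listed gene had a knockout value of at least 1, so a gene very low in wild type could be listed only with a high ratio. Whether level and ratio are related in amino acid carriers beyond this was not tested.

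Carriers of large neutral amino acids were the facilitators SLC43A1 and SLC43A2 and the exchanger SLC7A8. SLC43A2 was at 14.8 against 3.40, a fold of 4.36 (3.94 to 4.83), and SLC43A1 at 3.29 against 0.54, a fold of 5.73 (3.61 to 9.55). SLC7A8, the light chain LAT2, was at 25.8 against 9.48. Its deposited ratio was 2.72, but its read-count fold was 2.21 (2.0037 to 2.43), because its reads per unit of expression, knockout relative to wild type, differed by -19.0% from the value most genes share. SLC3A2, the heavy chain that SLC7A8 needs, was not analysed here.

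Among neurotransmitter-type carriers, SLC6A9, a glycine transporter, was at 21.1 against 8.07, a fold of 2.70 (2.41 to 3.04). SLC6A12, which carries betaine and GABA, was at 2.40 against 0.07 from 139 and 4 reads, so its fold of 30.1 had an interval of 11.5 to 112. SLC1A2, a glutamate transporter known from glia, was at 1.15 against 0.25 and was the member of this class under 2-fold on the log2(value + 1) scale, although its read-count fold was 4.55 (3.30 to 6.28). The peptide transporter SLC15A2 was at 1.97 against 0.18, a fold of 12.7 (7.20 to 23.0). These low genes show how far the added 1 shrinks a ratio.

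Genes that use or sense amino acids were listed in part. Beside these and later gene lists, 10.0% of all protein-coding genes were listed, and 80.6% of all listed genes were at least 2-fold higher. The lists hold chosen genes, while many of all protein-coding genes may be silent in this line. Their listed shares are therefore also counts and no enrichment. Of 25 genes of arginine and polyamine metabolism, 5 were listed, 4 of them at least 2-fold higher. ASS1, which makes argininosuccinate on the way to arginine, was at 314 against 35.2, a fold of 8.92 (8.34 to 9.57). SAT1, which acetylates polyamines, was at 486 against 75.1, a fold of 6.23 (5.92 to 6.56). The others were ODC1, the enzyme that makes putrescine, at 23.0 against 11.1, AGMAT at 4.31 against 1.36 and the spermine oxidase SMOX at 2.83 against 0.22. Of 28 genes of amino acid sensing by mTORC1, 5 were listed, 4 of them at least 2-fold higher. LAMTOR5 and LAMTOR4, parts of the lysosomal Ragulator complex, were at 175 against 41.9 and 96.1 against 29.3, and SESN1, a leucine-binding relative of SESN2, at 13.4 against 2.30. CASTOR2 was at 6.64 against 2.98, and SESN3 at 2.10 with 372 reads against 0. Of 20 genes picked for the ATF4 amino acid response, which include none of the members, only the kinase gene EIF2AK3 was listed, at 15.1 against 6.04. Of 10 glutathione genes, 3 were listed: GPX4 (251 against 124), GSR (56.6 against 20.4) and GCLM (9.91 against 2.53).

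Metal carriers held the member with the highest knockout value. SLC39A6, a zinc importer, was at 792 against 39.9, the 20th highest knockout value of the 2046 genes. Its 53575 and 2336 reads gave a fold of 19.9 (19.0 to 20.7), the interval narrowest relative to its fold among members with a fold over 10. The gene is on chromosome 18, minus strand, at 36108532 to 36129385, and the next protein-coding gene, ELP2, was at 28.6 against 6.82. SLC39A8, which imports zinc and manganese, was at 21.3 against 3.46, a fold of 5.98 (5.06 to 7.09). SLC30A3, a vesicular zinc transporter best known from brain, was at 4.90 against 0.13 from 183 and 4 reads, a fold of 39.7 (15.2 to 147). SLC11A1, a metal carrier of phagosomes, was at 1.32 against 0.40, under 2-fold on the log2(value + 1) scale,, a fold of 2.89 (1.88 to 4.45) whose interval includes 2. Of 14 genes that buffer zinc and copper, 5 were listed and all 5 were at least 2-fold higher, as were 80.6% of all listed genes. They were the metallothioneins MT2A (122 against 55.2), MT1X (15.3 against 5.61) and MT1F (8.72 against 1.90), and the copper proteins ATOX1 (107 against 52.3) and ATP7A (5.50 against 1.43). Metallothionein genes are close copies of each other, so their values depend on how shared reads were divided. Of 14 iron genes, 4 were listed, 3 of them at least 2-fold higher: the ferritin chains FTH1 (4487 against 928) and FTL (853 against 211) and the heme oxygenase HMOX1 (23.5 against 2.61). The iron-sulfur scaffold ISCU was at 44.8 against 22.4.

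Inorganic ion carriers gave 7 members, 5 of them at least 2-fold higher, with a median deposited ratio of 2.89. SLC12A2, the sodium-potassium-chloride cotransporter NKCC1, was at 78.5 against 8.85 from 9319 and 920 reads, a fold of 8.77 (8.19 to 9.39). It was the most abundant of the class in the knockout library, while in the wild-type library SLC4A2 was higher. SLC4A2, the chloride-bicarbonate exchanger AE2, was at 55.2 against 25.8, a fold of 2.15 (2.03 to 2.28). The cation-chloride relatives of SLC12A2 were lower in level: SLC12A9 was at 13.7 against 4.73, a fold of 2.71 (2.34 to 3.15), and SLC12A5, the potassium-chloride cotransporter of neurons, at 1.17 against 0.22, a fold of 5.44 (3.42 to 9.08). SLC4A10, a sodium-bicarbonate carrier, had 400 knockout reads and 0 wild-type reads. With 3 reads standing for the 0 its fold was 115, and the authors' deposited table gives a ratio of 38.6. The counting interval takes the 0 as counted, without the 3 reads, and started at 93.4. The deposited wild-type value of 0.1 for SLC4A10 stands for that 0. SLC26A2, a sulfate transporter, was at 6.82 against 3.14, a fold of 2.19 (1.95 to 2.46). SLC8B1, the mitochondrial sodium-calcium exchanger NCLX, was at 6.20 against 2.48. Its deposited ratio was 2.50 and its read-count fold 2.12 (1.74 to 2.60).

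The pumps that set the gradients these carriers use were also listed in part, at 6 of 16 genes, 5 of them at least 2-fold higher. ATP1B1, the beta subunit of the sodium-potassium pump, was at 183 against 56.7, a fold of 3.23 (3.07 to 3.39). The calcium pump genes were ATP2A3 (91.5 against 21.5), ATP2B1 (44.4 against 22.0), ATP2C2 (14.9 against 4.37) and ATP2B4 (8.52 against 3.25). Of 18 genes for kinases and partners of carriers, 5 were listed, 3 of them at least 2-fold higher. STK39, the kinase SPAK that activates SLC12A2, was at 21.2 against 10.2, and SGK1, which keeps carriers and channels at the membrane, at 2.49 against 0.14. EMB, a chaperone of monocarboxylate carriers, was at 13.1 against 4.31. CA2, a carbonic anhydrase that supplies bicarbonate, was at 9.66 against 0.04 from 296 reads and 1, a fold of 256 with an interval of 45.6 to 10153. WNK2 was at 1.0 against 0.45.

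Mitochondrial carriers gave 7 members, 6 of them at least 2-fold higher, with a median deposited ratio of 2.97. The ADP/ATP carriers SLC25A5 and SLC25A6, which exchange ADP for ATP across the inner membrane, were the second and the fourth most abundant members in the knockout library. SLC25A5 was at 535 against 153, a fold of 3.51 (3.38 to 3.65), and SLC25A6 at 523 against 228, a fold of 2.29 (2.22 to 2.37). In the wild-type library SLC25A6 was the higher of the pair, and in the knockout library their values were close together. The genes are close copies and have processed pseudogenes, so the division of reads between them is uncertain. SLC25A43, a carrier of unknown substrate, lies 13922 bases from SLC25A5 on chromosome X and was at 29.9 against 5.98, a fold of 4.98 (4.34 to 5.72). PGRMC1, the next protein-coding gene on its other side, was at 104 against 33.3, so that 3 neighbouring genes were listed there.

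The remaining mitochondrial carriers were SLC25A13, SLC25A30, SLC25A18 and SLC25A48. SLC25A13, the aspartate-glutamate carrier citrin, was at 30.3 against 13.3, a fold of 2.24 (2.05 to 2.46), and SLC25A30 at 13.2 against 5.12, a fold of 2.58 (2.25 to 2.96). SLC25A18, a glutamate carrier, was at 3.48 against 1.17. Its deposited ratio of 2.97 compares with a read-count fold of 2.39 (1.77 to 3.25). SLC25A48 had 40.4 reads against 0 and a knockout value of 1.08. With 3 reads standing for the 0 its fold was 11.7, and the authors' deposited table gives a ratio of 10.8. The counting interval, again without the 3 reads, started at 8.96. Of 17 other genes of transport across mitochondrial membranes, 3 were listed: the serine carrier SFXN1 (54.5 against 14.2), SFXN5 (6.99 against 1.10) and the calcium channel subunit MCU (12.98 against 6.15).

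Carriers of organic ions and monocarboxylates gave 10 members, of which 8 were at least 2-fold higher and 4 had a deposited ratio of at least 10. The SLCO genes, which encode sodium-independent organic anion transporters, were all among these 4. SLCO4A1 was at 36.8 against 1.47 from 2093 and 80 reads, a fold of 22.6 (18.1 to 28.7). SLCO4C1 was at 12.9 against 0.47, a fold of 28.0 (20.2 to 39.7), and its neighbour ST8SIA4 was listed at 6.74 against 0.10. SLCO3A1 was at 5.22 against 0.03 from 310 reads and 1, so its fold of 268 had an interval of 47.8 to 10632. None of the 3 had a wild-type value over 1.47.

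Of the SLC16 family, SLC16A1, the lactate and pyruvate carrier MCT1, was at 15.9 against 1.08 from 1159 and 68 reads, a fold of 14.8 (11.6 to 19.1). Its wild-type value lay under the members' median of 2.48 and its knockout value above their median of 13.2. SLC16A13 and SLC16A14, less studied relatives, were at 10.1 against 4.42 and 2.41 against 0.60, for folds of 2.29 (1.85 to 2.84) and 4.46 (3.11 to 6.71). Of 17 glycolysis genes, whose end product MCT1 carries, 4 were listed, all at least 2-fold higher, as were 80.6% of all listed genes. They were TPI1 (578 against 233), GPI (193 against 87.1), HK2 (21.2 against 9.36) and ENO2 (18.8 against 6.0).

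The rest of the class were members of SLC22 and SLC18. SLC22A4, a carrier of ergothioneine and organic cations, was at 2.87 against 0.46, a fold of 5.94 (3.54 to 10.9), and SLC18A2, which loads monoamines into vesicles, at 2.37 against 0.67, a fold of 3.52 (2.50 to 5.06). SLC22A18, at an imprinted locus on chromosome 11, was at 13.2 against 6.48, a fold of 1.99 (1.64 to 2.42), and PHLDA2, the next protein-coding gene there, was at 56.3 against 11.6. SLC22A17, a receptor for the siderophore-binding protein lipocalin 2, was at 3.93 against 1.78. Its read-count fold of 1.69 (1.29 to 2.23) was the lowest of all members, and its reads per unit of expression differed by -23.5% in the same measure. SLC22A17 and SLC22A18 were the members with a read-count fold under 2.

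Vitamin and choline carriers gave 4 members with the narrowest range of ratios, 2.08 to 2.51. SLC44A2, a choline transporter-like protein, was at 173 against 76.2, a fold of 2.25 (2.18 to 2.34). SLC52A2, which carries riboflavin, was at 44.7 against 21.4 and SLC19A2, which carries thiamine, at 37.5 against 17.4. Their folds of 2.05 (1.88 to 2.25) and 2.14 (1.99 to 2.31) had intervals that include 2. The ascorbate carrier SLC23A1 was at 2.31 against 0.92, a fold of 2.53 (1.71 to 3.88). SLC44A2 was thus the only gene of this class whose counting interval lay above 2.

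Sugar carriers gave 3 members. SLC2A10, the facilitator GLUT10, was at 10.7 against 1.93, a fold of 5.66 (4.69 to 6.84). SLC37A1, a sugar-phosphate exchanger of the endoplasmic reticulum, was at 25.5 against 9.87, a fold of 2.60 (2.35 to 2.89). SLC45A4 was at 1.72 against 0.73 and had the lowest log2 ratio of all members, 0.65,, a fold of 2.35 (1.74 to 3.22). The regulator SLC2A4RG was at 120 against 57.2, a fold of 2.09 (1.99 to 2.20).

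Carriers of inositol were SLC5A3 and SLC5A11. SLC5A3, a sodium-coupled importer of the osmolyte myo-inositol, was at 36.3 against 3.54 from 7907 and 667 reads, a fold of 10.3 (9.48 to 11.1). Its gene overlaps MRPS6 on the same strand of chromosome 21, so reads may be shared between them. SLC5A11, another inositol carrier, was at 1.11 against 0.07 from 45 and 3 reads, a fold of 12.98 (4.17 to 65.3).

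Lipid and bile acid families gave SLC27A2 and SLC10A3. SLC27A2, a fatty acid transport protein that also activates very long chain fatty acids, was at 12.4 against 0.68 from 549 and 26 reads, a fold of 18.3 (12.3 to 28.2). SLC10A3, an orphan of the bile acid family, was at 20.6 against 8.86, a fold of 2.33 (2.03 to 2.67). The nucleoside class held SLC29A3, a lysosomal and mitochondrial nucleoside transporter, at 10.4 against 3.33, a fold of 3.13 (2.55 to 3.86). Of 13 genes of nucleoside salvage, 3 were listed: PNP (52.1 against 19.9), HPRT1 (33.2 against 12.4) and CDA (1.84 against 0.47). None of the SLC35 genes was listed. Of 16 enzymes that make nucleotide sugars or the sulfate donor, 6 were listed, 5 of them at least 2-fold higher. These were UGDH at 32.4 against 5.71, PAPSS2 at 12.2 against 2.50, GFPT1 at 37.7 against 12.2, GMPPA at 28.4 against 13.2 and UGP2 at 51.5 against 24.2. GFPT2, at 1.78 against 0.75, was under 2-fold on the log2(value + 1) scale.

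By position, 6 members lay on chromosome X (among them SLC25A5, SLC25A6, SLC25A43, SLC6A14 and SLC10A3), of 14 solute carrier genes that GENCODE 29 places there. SLC25A6 is in the pseudoautosomal region. Chromosome 5 also held 6, of 27, and chromosomes 6 and 9 held 0, of 24 and 14. Chromosome 20 held 4, of 13, and chromosome 21 held 2, of 3. Of all solute carrier genes in RefSeq, 13.3% were listed. Whether members gather on any chromosome was not tested. Apart from SLC25A5 and SLC25A43, 2 pairs of members lay within 1 megabase, SLC7A8 with SLC22A17 on chromosome 14 (162632 bases apart) and SLC12A5 with SLC2A10 on chromosome 20 (649335 bases apart). In 4 cases a protein-coding gene that overlaps a member on the opposite strand was also listed, namely EPHB4 with SLC12A9, RSPH1 with SLC37A1, CDK5 with SLC4A2 and PDZD8 with SLC18A2. Whether strand was used in counting is not given, so reads of these pairs may not be separated.

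Solute carrier families whose genes carry other symbols gave 6 of 38 listed, with FLVCR2, a choline transporter, at 12.3 against 1.84 and ANKH, a pyrophosphate and citrate exporter, at 5.59 against 0.52. The reads of ANKH gave a smaller ratio than these values, a fold of 4.93 (3.78 to 6.42). RHBG and RHCG, ammonium transporters, were at 2.07 against 0.93 and 1.90 against 0.16.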

How the data were processed

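RNA of 1 wild-type and 1 TMEM25 knockout library was analysed. Reads were processed with CASAVA 1.4 and HISAT2 2.0.4 on GRCh38.p12, per the submitters' processing notes; how genes were counted, with which annotation and whether by strand is not stated there. The authors deposited an expression signal and an expected count per gene and library, their ratio, and log2 ratios to the mean. The headers of the deposited log2 columns are crossed in 2046 of 2046 genes, so these were not used, and direction rests on the other headers. All columns were matched by genotype (0 unmatched). No library total could be formed.

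Log2 ratios used a pseudocount of 1, for genes with 1 or more in either library. The read-count fold was divided by 1.16, the median of 1133 genes that had 100 or more wild-type reads. Expected counts were rounded only for the exact conditional binomial intervals. These intervals cover counting error only, since reads are not independent molecules. They were run on simulated whole counts drawn under the model they assume, so that run is no check of the model. Genes with the fewest wild-type reads were left out of it. In the fold, 3 reads stand for a count of 0. Python 3.11.15, pandas 2.3.3 and scipy 1.17.1 were used. Members were grouped by family and substrate; SLC2A4RG and SLC5A11 were regrouped after the table was seen. Named genes were the members, except 1 that is not reported here, and, of each partner list, up to 4 with the highest knockout value; any more list genes were picked with values in view. The members and lists were chosen with earlier results of these data known. Alternatives were other pseudocounts, filters, ratios, fold rules and centring.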

Additional observations from a re-analysis of the deposited data

How the results depend on the processing

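With 1 library a genotype, no replicate could be left out. No paired analysis was possible because each genotype has 1 library. The count of 43 members at least 2-fold higher was 23 with a pseudocount of 5, 15 under the 4-fold rule and 12 after centring on the median of all listed genes, each lower by construction. It was 41 of 53 by the counting interval, 43 of 53 without a filter, 48 of 59 with families under other symbols, 32 of 33 at a mean of at least 5, 51 and 52 of 53 from scaled and unscaled reads, and 53 of 53 with a pseudocount of 0.1 or the deposited ratio. The median log2 ratio of 1.30 was 1.81 and 0.95 with pseudocounts of 0.1 and 5, 1.82 from read counts, 2.03 from unscaled read counts and 1.82 from the deposited ratio. Centring gave -0.025, with 27 members below 0; it treats a table selected for high ratios as shifted. Of all listed genes 80.6% were at least 2-fold higher, and most members were so in 10 of 10 substrate classes. This held in 3 classes with a pseudocount of 5 and in 1 after centring. Leaving out SLC2A4RG, or members with under 10 wild-type reads, was chosen after seeing the data and gave 42 of 52 and 38 of 46. Few wild-type reads limit the 7 members under 10 reads.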
